A study of Mus musculus with 20 samples.

Results

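The 4 GEM-PNST libraries were set against the 12 neurofibroma libraries, 16 of the 20 RNA-seq libraries that the series holds of whole nerve tumors from mice. Membership was taken from the tumor stage that the labels give each library. GEM-PNST stands for a genetically engineered mouse peripheral nerve sheath tumor. Every mouse was of the C57BL/6J strain and carried floxed Nf1 alleles with the DhhCre transgene (Nf1fl/fl; DhhCre), in which the desert hedgehog promoter drives Cre recombinase in the Schwann cell lineage, so that the other cells of the nerve keep Nf1. The neurofibroma mice carried no further allele in the labels, whereas the GEM-PNST mice were Ink4a/Arf+/-; Nf1fl/fl; DhhCre, a germline change present in all of their cells. No treatment was given in either group and the labels used here give no age per library and do not say whether a tumor was primary or grafted. Nothing in the labels says that each library came from its own animal, so the p-values measure the spread between these libraries, which may in part be technical. The sample codes of neurofibroma libraries 8 and 9 differ in a last letter alone, as do, upper and lower case aside, those of GEM-PNST library 2 and 1 paraspinal library. What the codes mark is not given in the sources used here, and libraries 8 and 9 were each left out in turn for this reason. The 12 neurofibroma libraries came from 2 sequencing runs of 6 libraries each and the 4 GEM-PNST libraries from another run, as the file names that the deposited files pair with the libraries show, so stage, Ink4a/Arf genotype and run cannot be told apart in this comparison. The 4 remaining libraries, from paraspinal tumors of the Ink4a/Arf+/- genotype sequenced in the same run as the GEM-PNST libraries, are given below only as levels, with no test.

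Neurofibromin, the product of Nf1, is a GTPase-activating protein that switches RAS off, and its loss in Schwann cells gives benign neurofibromas made of Schwann cells, fibroblasts, mast cells, macrophages, vessels and trapped axons. Malignant peripheral nerve sheath tumors can arise from such lesions. In human tumors the step is marked by loss of CDKN2A, which encodes the cell cycle inhibitor p16INK4a and the p53 activator ARF, and often by loss of polycomb repressive complex 2. The malignant cells are known for losing Schwann cell differentiation and for dividing more.

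Total counts ranged from 9900759 to 17594164 in the neurofibroma libraries and from 16282605 to 22218382 in the GEM-PNST libraries. Levels below are CPM, the counts of a gene scaled by the library total and a trimmed mean of M values (TMM) factor. Differences are log2 fold changes of GEM-PNST over neurofibroma with their standard error (SE). A gene was called at an adjusted p below 0.05. The groups also differed in RNA composition. The nuclear RNA Malat1 took 2.52% to 3.58% of counts in neurofibromas, 0.016% to 0.09% in GEM-PNST and 0.022% to 0.087% in the paraspinal libraries of the same run. Ribosomal RNA of Rn45s took 30.7% of counts in GEM-PNST library 4, 0.371% to 0.753% in the other GEM-PNST libraries and 3.48% to 18.9% in neurofibromas. Across 16039 genes with a known exon length and GC content, the log2 fold change had a Spearman correlation of -0.28 with length and 0.35 with GC content, against 0.02 and 0.01 for the difference between the neurofibroma runs. A refit without Rn45s and Malat1 called 11880 of 16135 genes. It takes out the counts of these genes and leaves any other difference in RNA composition. Whether Malat1, Rn45s, length or GC content caused any of the results was not tested. Values without the length and GC trend stand beside genes whose call or direction they changed or whose called value they moved by over 1.5 times. So do values without 1 GEM-PNST library, and the counts of a list are given again where leaving out 1 library or removing the trend moved a count by over 1.5 times.

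The libraries labelled GEM-PNST 1 and 3 stood apart from the other GEM-PNST libraries. Low levels of the glial factor Sox10 did not set library 1 apart, at 0.588 CPM there and 0.469 CPM in library 2. Library 1 was low in several markers of fibroblasts and mesenchyme, with 0.0653 CPM of the fibroblast receptor Pdgfra and 0.0653 CPM of the chromatin protein Hmga2. Its leading genes were those of antigen presentation: Cd74, the invariant chain of MHC class II, stood at 38523 CPM, and Cd207, which encodes the Langerhans cell lectin langerin, at 2430.3 CPM against 2.55, 0.237 and 1.4 CPM in the other 3. Library 3 held transcripts of salivary gland, with 26701 CPM of the saliva protein Bpifa2 and 4096 CPM of the amylase Amy1, and it was the one GEM-PNST library with a high Sox10 level (417 CPM). Results that rest on either library are therefore given with and without it. Because both are labelled GEM-PNST they stay in the values below unless a sentence says otherwise.

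Nf1, the gene that the mice were engineered to lose in the Schwann cell lineage (ENSMUSG00000020716.16, chromosome 11, 79339693 to 79581612, mm10), stood at 29.6, 21.7, 24.29 and 25.4 CPM in GEM-PNST libraries 1 to 4 and at 209 to 269 CPM (median 245) in the 12 neurofibroma libraries. The groups did not overlap and the paraspinal libraries lay between them at 33.1 to 83.5 CPM (log2 fold change -3.24, SE 0.15, adjusted p = 3.55e-11). For Nf1 the log2 fold change was -1.06 with the length and GC trend removed. Both groups carry the same floxed alleles and counts over the whole gene do not check the deletion. Cdkn2a (chromosome 4, 89274471 to 89294653), whose Ink4a and Arf transcripts share exons and were counted together, stood at 5.36, 0.521, 6.72 and 9.49 CPM against 0.0837 to 1.38 CPM (median 0.357). Libraries 1, 3 and 4 were above every neurofibroma and library 2 was within their range. Cdkn2a rose (log2 fold change 3.52, SE 0.59, adjusted p = 5.25e-05). The paraspinal libraries, of the GEM-PNST run and genotype, held 7.32 to 33.6 CPM of Cdkn2a, also above every neurofibroma. The Cdkn2a log2 fold change was 1.66 with the length and GC trend removed. Its neighbour Cdkn2b encodes the CDK inhibitor p15. Cdkn2b stood at 29.5, 2.81, 48.9 and 70.8 CPM against 2.34 to 26.5 CPM (median 12.9), with 23.3 to 70.3 CPM in the paraspinal libraries. Again only library 2 was low, and the call for Cdkn2b (log2 fold change 1.44, SE 0.61, adjusted p = 0.0414) was lost in the variants: 1.52 without library 1 (adjusted p = 0.0525), 1.31 without library 3 (adjusted p = 0.0925), 0.92 without library 4 (adjusted p = 0.228) and -0.10 with the length and GC trend removed (adjusted p = 0.902).

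Of 16217 genes tested, 11947 (73.7%) were called, 5766 (35.6%) higher and 6181 (38.1%) lower in GEM-PNST, and the groups did not overlap for 7655 (47.2%). The median log2 fold change over all genes tested was -0.12. These shares are the background for every gene list below. Between the 2 neurofibroma runs, which share stage and genotype, edgeR's quasi-likelihood test called 0 of 15327 genes (0%), with 2151 at an unadjusted p below 0.05, while DESeq2 called 503 and limma-voom 510. No list is tested as a set, and the counts describe its members beside the same counts over all genes.

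**Figure D1:**
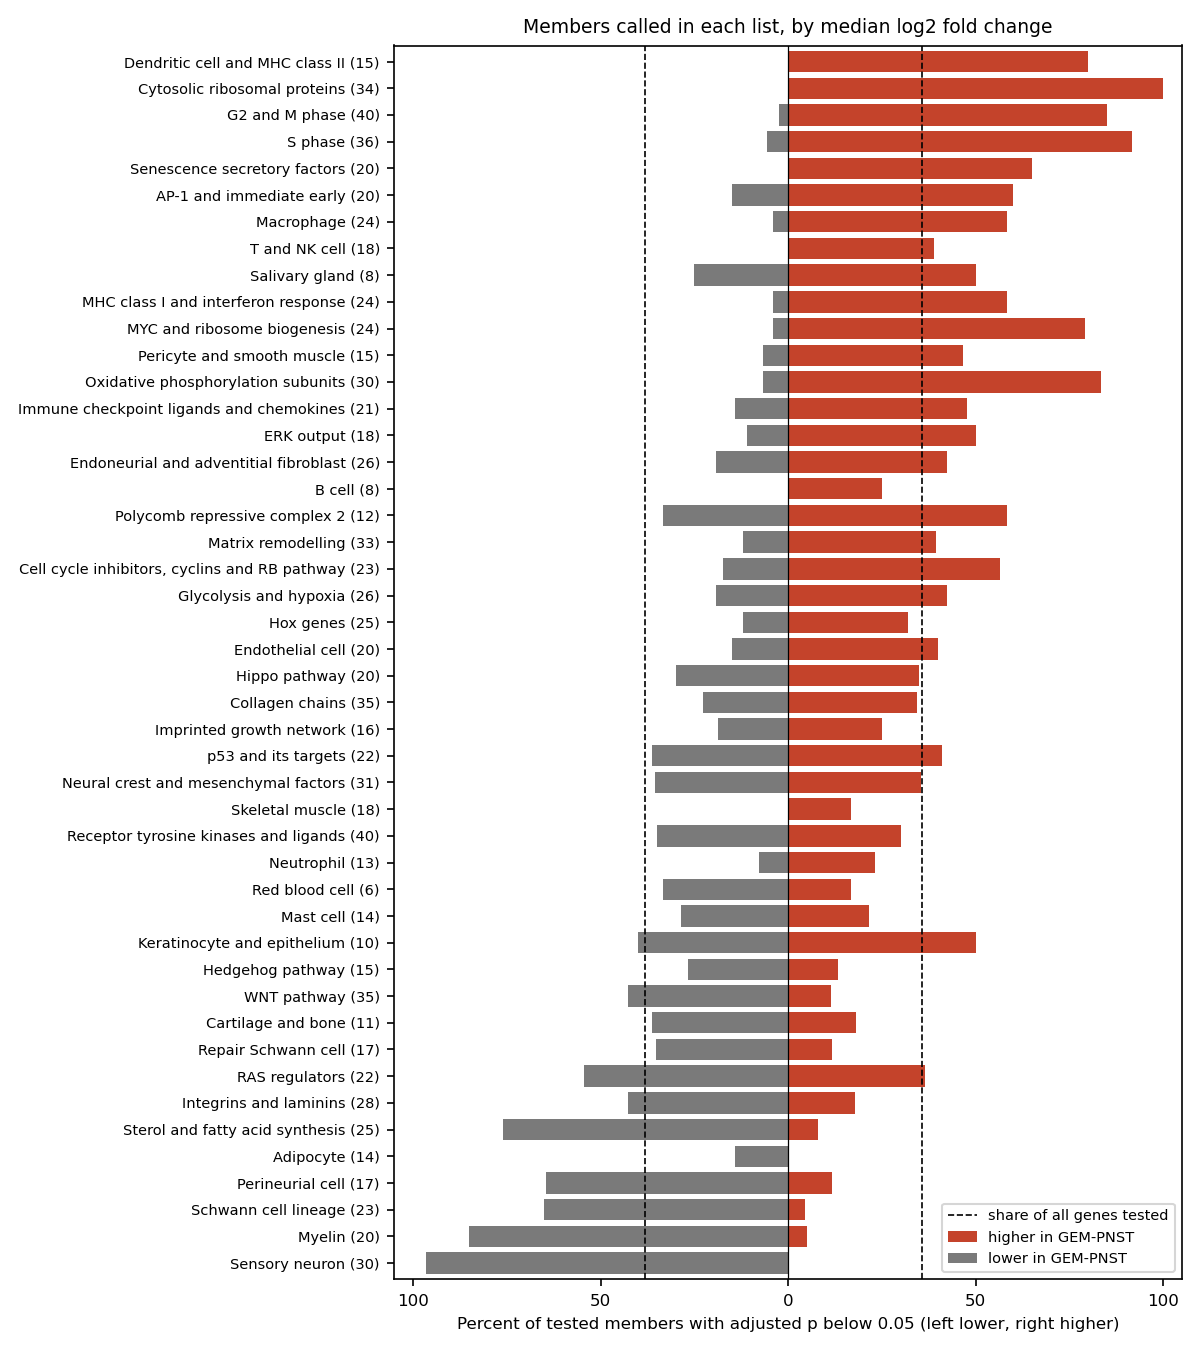
Percent of the tested members of each gene list called lower (grey bars, to the left) or higher (red bars, to the right) in GEM-PNST than in neurofibroma, with the number tested in brackets, lists ordered by median log2 fold change and dashed lines at the 38.1% and 35.6% of all genes tested. All 34 cytosolic ribosomal protein genes were higher, near the top, and 29 of 30 sensory neuron genes were lower, at the bottom.

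Schwann cell genes were low in GEM-PNST. Of 23 tested genes of the Schwann cell lineage, 15 fell, 1 rose and 7 were not called, with a median log2 fold change of -3.23. The mean log2 CPM over the list was -0.40, 1.06, 5.42 and 2.15 in GEM-PNST libraries 1 to 4 and 6.25 to 7.44 (median 7.18) in neurofibromas. Library 3 was the least reduced and still below every neurofibroma, and without it 18 members fell and the median was -7.08. The Schwann cell list gave 0 higher and 13 lower without library 2 and 2 higher and 15 lower with the trend removed. The paraspinal libraries, of the GEM-PNST genotype and run, held 7.01 to 7.67. In bulk tissue, fewer Schwann cells and less of their RNA per cell cannot be told apart, here and for every cell type below.

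Among the members, the calcium-binding protein S100b, a Schwann cell marker, stood at 0.196, 0.26, 16.7 and 2.41 CPM in GEM-PNST and 163 to 596 CPM (median 443) in neurofibromas. All 4 GEM-PNST libraries lay below all neurofibromas (log2 fold change -6.44, SE 1.04, adjusted p = 3.49e-05). Erbb3, the receptor through which axonal neuregulin acts on Schwann cells, stood at 0.261, 0, 6.82 and 1.17 CPM against 37.3 to 166 CPM (median 116), again with no overlap (log2 fold change -5.62, SE 0.97, adjusted p = 6.88e-05). The integrin Itgb8 stood at 0, 1.04, 0.616 and 0.778 CPM against 74.3 to 469 CPM (median 239), with all 4 libraries near 0 (log2 fold change -8.54, SE 0.86, adjusted p = 1.70e-07). Fabp7, a lipid-binding protein of glial precursors, stood at 1.18, 0, 4.21 and 0.7 CPM against 11 to 224 CPM (median 99.3). All values of Fabp7 lay below the neurofibroma range (log2 fold change -6.00, SE 1.00, adjusted p = 4.73e-05). Dhh itself, the gene whose promoter drives Cre, stood at 0.0653, 1.61, 74.9 and 1.32 CPM against 143 to 460.1 CPM (median 364). Library 3 was the highest of the 4 and every value lay under the neurofibroma minimum (log2 fold change -4.12, SE 1.16, adjusted p = 0.00418). Dhh came to a log2 fold change of -8.37 without library 3.

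For Sox10 and Ngfr the outcome turned on library 3. Sox10, the transcription factor that specifies glia of the neural crest, stood at 0.588, 0.469, 417 and 5.45 CPM against 59.6 to 233 CPM (median 154). Libraries 1, 2 and 4 were near 0 and library 3 was above every neurofibroma, so Sox10 was not called (log2 fold change -0.53, SE 1.06, adjusted p = 0.662) and came to -6.15 without library 3 (adjusted p = 2.72e-06). With the trend removed Sox10 came to -2.19 (adjusted p = 0.108). Ngfr, the low-affinity neurotrophin receptor p75, stood at 0.131, 0.156, 55.97 and 0.778 CPM against 26.9 to 442 CPM (median 187) and fell (log2 fold change -3.94, SE 1.29, adjusted p = 0.0117). For Ngfr the log2 fold change was -9.31 without library 3. Tfap2a, a neural crest transcription factor, was the member that rose, at 0.131, 95.99, 17.4 and 44.1 CPM against 3.98 to 14.9 CPM (median 8.96). Libraries 2, 3 and 4 were above all neurofibromas and library 1 was below them (log2 fold change 2.09, SE 0.66, adjusted p = 0.00911). The Tfap2a log2 fold change was 1.14 without library 2 (adjusted p = 0.157).

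**Figure D2:**
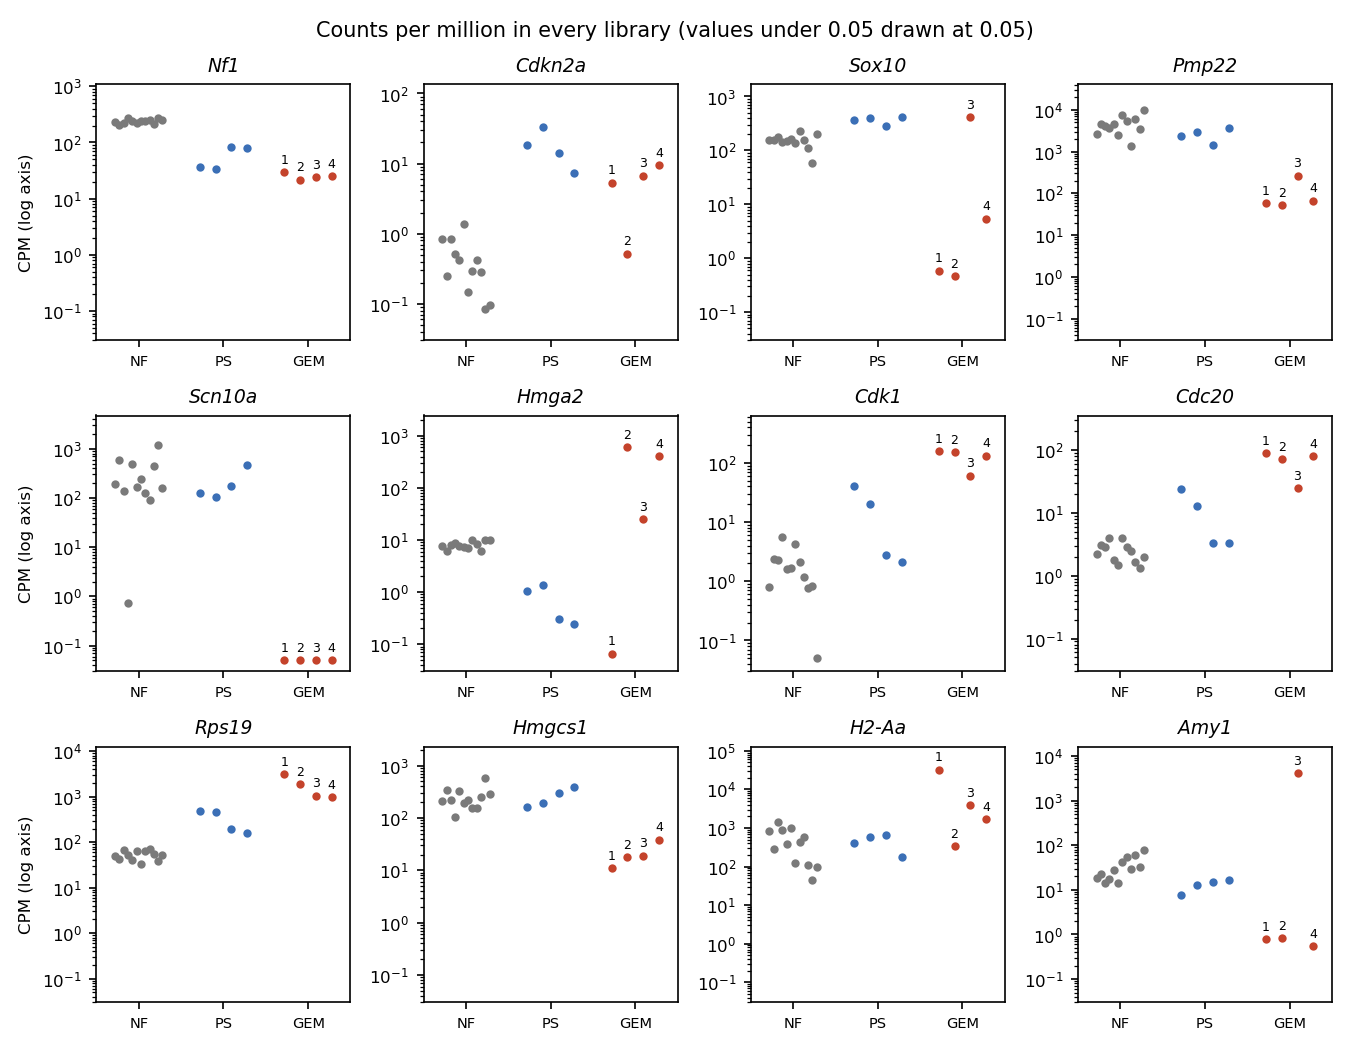
CPM on a log axis of 12 genes in every neurofibroma (NF, grey), paraspinal (PS, blue) and GEM-PNST (GEM, red, numbered by library) library, 1 point per library, with values under 0.05 drawn at 0.05. Nf1, Pmp22, Scn10a and Hmgcs1 are lower, and Cdk1, Cdc20 and Rps19 higher, in all 4 GEM-PNST libraries than in any neurofibroma, whereas Sox10 and Amy1 are high in library 3 alone of the GEM-PNST libraries.

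Myelin genes fell as well. Of 20 tested myelin genes, 17 fell and 1 rose, with a median of -5.19, and in 15 the groups did not overlap. Pmp22, a dosage-sensitive myelin membrane protein, stood at 57.3, 51.5, 268 and 66.4 CPM against 1351 to 10156 CPM (median 4323), with library 3 the highest of the 4 (log2 fold change -5.40, SE 0.69, adjusted p = 2.80e-06). Egr2, the transcription factor that drives myelination, stood at 1.11, 3.38, 25.05 and 2.49 CPM against 30.6 to 146 CPM (median 76.97), with library 3 close to the neurofibroma minimum (log2 fold change -3.31, SE 0.72, adjusted p = 6.02e-04). Egr2 came to a log2 fold change of -5.08 without library 3. Transcripts of the lipid enzymes of myelin were at or near 0: Ugt8a, which makes galactocerebroside, stood at 0, 0, 0.189 and 0 CPM against 26.7 to 407 CPM (median 124). The Ugt8a levels of the groups did not overlap, with GEM-PNST the lower (log2 fold change -11.23, SE 1.16, adjusted p = 2.30e-07). Fa2h, which hydroxylates its fatty acids, stood at 0, 0.104, 1.04 and 0 CPM against 42.3 to 288 CPM (median 75.3). Fa2h was lower in all 4 libraries than in any neurofibroma (log2 fold change -8.50, SE 1.07, adjusted p = 2.24e-06). Mpp6, a scaffold protein found in myelin and also in other cells, was the exception that rose, at 139, 112, 27.9 and 52.8 CPM against 30.97 to 58.9 CPM (median 36.95). Mpp6 was above every neurofibroma in libraries 1 and 2, within their range in library 4 and below every neurofibroma in library 3 (log2 fold change 1.06, SE 0.29, adjusted p = 0.00311). For Mpp6 the log2 fold change was 0.67 without library 1 and 1.90 with the length and GC trend removed.

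Genes of the repair Schwann cell, the state that Schwann cells take after nerve injury, were mixed. Of 17 tested members, 2 rose and 6 fell, with a median of -0.94. The share that fell was near the 38.1% of all genes tested, and the share that rose was below 35.6%. The repair cell list gave 4 higher and 6 lower without library 1 (median -0.58), 1 higher and 6 lower without library 2, 4 higher and 6 lower without neurofibroma library 4 and 1 higher and 5 lower with the trend removed (median -0.53). The morphogen Shh was not counted in any GEM-PNST library and stood at 6.49 to 43.6 CPM (median 25.6) in neurofibromas, which puts it at least 537-fold lower when the GEM-PNST group is set at a floor of 3 counts (log2 fold change -11.47, SE 0.92, adjusted p = 8.11e-08). The floor covers counting error only, and the fitted log2 fold change of a gene at 0 depends on the prior count. The neuregulin gene Nrg1 stood at 0, 5.62, 0.237 and 3.97 CPM against 3.99 to 119 CPM (median 48.6) and fell (log2 fold change -4.36, SE 1.03, adjusted p = 0.00118). The Nrg1 log2 fold change was -2.81 with the length and GC trend removed. Jun, the regulator of the repair state, stood at 58.8, 219.7, 97.2 and 181 CPM against 38.3 to 90.3 CPM (median 58.5). Libraries 2, 3 and 4 were above all neurofibromas and library 1 was within their range (log2 fold change 1.18, SE 0.26, adjusted p = 7.79e-04). Jun came to a log2 fold change of 0.08 with the length and GC trend removed (adjusted p = 0.811).

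Transcripts of sensory neurons, whose axons and cell bodies lie in and beside the nerve roots, were close to absent. Of 30 tested members 29 fell and 0 rose, with a median of -7.35, the same with genes at 0 set at their bound. The 1 not called was Avil, an actin-binding protein that stood at 464, 8.64, 1.18 and 4.05 CPM. Without library 1 all 30 members, Avil included, were called lower. On average the genes of the neuron list stood at -1.85, -0.44, -0.65 and -0.76 log2 CPM in GEM-PNST. They stood at 0.56 to 8.40 (median 6.41) in neurofibromas and 6.47 to 7.48 in the paraspinal libraries. The neurofibromas themselves spread widely, and the lowest of them, library 4, came close to the GEM-PNST libraries; without it 29 members fell. Scn10a (chromosome 9, 119608456 to 119719322), a sodium channel of pain fibres, had 0 counts in all 4 GEM-PNST libraries and 0.738 to 1183 CPM (median 182) in neurofibromas, at least 6980-fold lower on the floor of 3 counts (log2 fold change -15.21, SE 2.27, adjusted p = 3.62e-05). The neurofilament gene Nefh stood at 0, 0.0521, 0.473 and 0.156 CPM against 1.85 to 1035 CPM (median 453). The Nefh levels of the groups did not overlap, with GEM-PNST the lower (log2 fold change -11.28, SE 1.51, adjusted p = 4.41e-06). Trpv1, the capsaicin receptor, was counted once, in library 3 at 0.0473 CPM, against 1.4 to 38.5 CPM (median 11.6), which is 963-fold lower (95% counting interval 173 to 38100.0). Trpv1 was lower in all 4 libraries than in any neurofibroma (log2 fold change -9.32, SE 1.12, adjusted p = 1.27e-06). Peripherin, the product of Prph, stood at 0.261, 2.08, 2.04 and 0.311 CPM against 0.96 to 582 CPM (median 156), and the groups overlapped at the lowest neurofibroma (log2 fold change -7.36, SE 1.27, adjusted p = 6.80e-05).

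Perineurial genes, those of the cells that sheathe the nerve, mostly fell: 11 of 17 tested members were lower and 2 higher, with a median of -2.93. The perineurial cell list gave 1 higher and 12 lower without library 2, 1 higher and 10 lower without library 4 and 0 higher and 11 lower with the trend removed. The tight junction protein Tjp1 stood at 3.59, 23.8, 24.9 and 45.6 CPM against 152 to 414 CPM (median 290.0), with no overlap (log2 fold change -3.57, SE 0.51, adjusted p = 8.56e-06). Ptch1, the hedgehog receptor that receives the Schwann cell signal Dhh in the perineurium, stood at 0.653, 1.3, 0.947 and 2.33 CPM against 72.3 to 354 CPM (median 260.3), also with no overlap (log2 fold change -7.52, SE 0.54, adjusted p = 3.39e-09). Sgpp2, a sphingosine phosphate phosphatase, was nearly absent at 0, 0.26, 0.0473 and 0.156 CPM against 14.8 to 209 CPM (median 86.9). All values of Sgpp2 lay below the neurofibroma range (log2 fold change -9.47, SE 0.87, adjusted p = 5.93e-08). The members Slc2a1 and Cldn1 were not called. Slc2a1 stood at 82.7, 527, 19.7 and 95.5 CPM against 69.6 to 236 CPM (log2 fold change 0.23, SE 0.53, adjusted p = 0.709). With the trend removed it came to -0.64 (adjusted p = 0.305). Cldn1 stood at 58.1, 1.35, 211 and 35.0 CPM against 29.5 to 690 CPM (log2 fold change -1.98, SE 0.92, adjusted p = 0.0618). Without library 3 it came to -3.23 (adjusted p = 0.0109). Outside the perineurial list, the epithelial gene Cdh1, which encodes E-cadherin, stood at 1.89, 1.04, 14.7 and 0.623 CPM against 58.1 to 319 CPM (median 211). The Cdh1 levels of the groups did not overlap, with GEM-PNST the lower (log2 fold change -5.34, SE 0.86, adjusted p = 3.33e-05).

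Fibroblast genes did not move one way. Of 26 tested members 11 rose and 5 fell, with a median of 1.07, but without library 3 the counts were 4 and 6. The small proteoglycan Dcn stood at 0.457, 342, 975 and 424 CPM against 720.1 to 5556 CPM (median 3214). Library 1 was close to 0, libraries 2 and 4 were below all neurofibromas and library 3 was within their range (log2 fold change -2.85, SE 0.98, adjusted p = 0.0148). For Dcn the log2 fold change was -1.69 with the length and GC trend removed (adjusted p = 0.107). Pi16, a marker of adventitial fibroblasts, stood at 0.0653, 11.5, 617 and 5.21 CPM against 1.33 to 20.9 CPM (median 6.78), so its rise was that of library 3 alone (log2 fold change 4.31, SE 1.00, adjusted p = 9.97e-04). The Pi16 log2 fold change was -0.50 without library 3 (adjusted p = 0.607). Pdgfra, the fibroblast receptor for platelet-derived growth factor, stood at 0.0653, 530.2, 71.7 and 611 CPM against 31.9 to 201 CPM (median 130.3). Libraries 2 and 4 were above every neurofibroma while library 1 was at the limit of detection, and Pdgfra was not called (log2 fold change 1.25, SE 0.81, adjusted p = 0.173) until library 1 or the trend was taken out: 1.65 without library 1 (adjusted p = 0.00397) and 2.34 with the length and GC trend removed (adjusted p = 0.0143).

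Of 20 endothelial genes 8 rose and 3 fell, with 4 and 0 once the length and GC trend was removed. The endothelial cell list gave 5 higher and 5 lower without library 4. Plvap, a component of the diaphragms of leaky vessels, stood at 20.4, 51.8, 168 and 139 CPM against 1.14 to 12.3 CPM (median 3.46), above all neurofibromas in each of the 4 libraries (log2 fold change 4.28, SE 0.59, adjusted p = 6.70e-06). Plvap came to a log2 fold change of 2.46 with the length and GC trend removed. The VEGF receptor Flt1 stood at 12.9, 21.03, 7.53 and 13.9 CPM against 24.7 to 63.5 CPM (median 39.5) and fell (log2 fold change -1.53, SE 0.26, adjusted p = 5.85e-05). For Flt1 the log2 fold change was -0.25 with the length and GC trend removed (adjusted p = 0.386). The endothelial genes Pecam1 and Cdh5 were not called. Pecam1 stood at 10.5, 16.2, 88.3 and 143 CPM against 10.9 to 127 CPM (log2 fold change 0.62, SE 0.60, adjusted p = 0.357). Cdh5 stood at 5.94, 13.7, 74.7 and 149 CPM against 20.1 to 128 CPM (log2 fold change -0.27, SE 0.61, adjusted p = 0.695). Without library 1 the Cdh5 log2 fold change was 0.08 (adjusted p = 0.897). Of 15 pericyte and smooth muscle genes 7 rose and 1 fell. The pericyte and smooth muscle list gave 6 higher and 2 lower without library 1, and its median went from 1.43 to 0.24. Rgs5 was the member that fell, at 43.4, 1.46, 7.43 and 16.5 CPM against 32.4 to 121 CPM (median 72.5). Rgs5 was within the neurofibroma range in library 1 and below it in libraries 2, 3 and 4 (adjusted p = 0.00613). Without library 1 the Rgs5 log2 fold change was -3.07. Pdgfrb, the receptor of mural cells, was at 212, 225, 175 and 173 CPM against 34.9 to 81.5 CPM (median 60.3). Pdgfrb was higher in all 4 libraries than in any neurofibroma (log2 fold change 1.68, SE 0.18, adjusted p = 3.85e-07).

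Factors of the neural crest and of mesenchyme split evenly, with 11 of 31 tested members higher, 11 lower and a median of -0.13. Both shares were near the 35.6% and 38.1% of all genes tested. The crest and mesenchyme list gave 11 higher and 10 lower without library 1 (median 0.27), 10 higher and 10 lower without library 2 (median -0.43), 11 higher and 12 lower without library 3 (median 0.04), 10 higher and 12 lower without library 4 (median -0.50) and 10 higher and 8 lower with the trend removed (median -0.00). Twist1, a driver of mesenchymal state, stood at 3.4, 146, 15.8 and 49.2 CPM against 0.362 to 3.66 CPM (median 1.74). Libraries 2, 3 and 4 were above every neurofibroma (log2 fold change 4.90, SE 0.61, adjusted p = 2.08e-06). The Twist1 log2 fold change was 2.96 with the length and GC trend removed. Msx1, a homeobox gene of crest mesenchyme, stood at 1.44, 12.4, 33.2 and 9.42 CPM against 0 to 0.208 CPM (median 0.0265) and was higher in all 4 libraries (log2 fold change 7.71, SE 0.73, adjusted p = 8.06e-08). Hmga2, a chromatin protein of embryonic and tumor cells, stood at 0.0653, 613, 25.05 and 405 CPM against 6.11 to 10.2 CPM (median 7.93), high in libraries 2 and 4, moderate in 3 and near 0 in 1 (log2 fold change 5.01, SE 0.79, adjusted p = 2.60e-05). Prrx1, a mesenchymal homeobox gene, followed the same order of libraries at 9.41, 375, 82.7 and 185 CPM against 11.1 to 62.2 CPM (median 33.3). Prrx1 was above every neurofibroma in libraries 2, 3 and 4 and below every neurofibroma in library 1 (log2 fold change 2.18, SE 0.51, adjusted p = 0.00108). Prrx1 came to a log2 fold change of 1.37 without library 2 and 3.78 with the length and GC trend removed. On the other side, Zeb2, a repressor needed for myelination, stood at 6.4, 15.04, 68.6 and 58.1 CPM against 314 to 1560.0 CPM (median 869). The Zeb2 levels of the groups did not overlap, with GEM-PNST the lower (log2 fold change -4.53, SE 0.64, adjusted p = 8.57e-06). For Zeb2 the log2 fold change was -1.94 with the length and GC trend removed. Igf2bp3, an RNA-binding protein of fetal tissue, had counts in library 4 alone, at 0.233 CPM, against 12.5 to 19.7 CPM (median 15.8), which is 356-fold lower (95% counting interval 122 to 1730.0). All values of Igf2bp3 lay below the neurofibroma range (log2 fold change -8.14, SE 0.66, adjusted p = 1.27e-08). It was at 0 in all paraspinal libraries too, which share run and Ink4a/Arf genotype with GEM-PNST.

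Cell division genes were high in all 4 GEM-PNST libraries. Of 36 tested genes of S phase, 33 rose and 2 fell, with a median of 2.54 and no overlap between groups for 29. Of 40 genes of G2 and M phase, 34 rose and 1 fell, with a median of 2.97. With the length and GC trend removed the counts were 33 and 1 for S phase and 39 and 0 for G2 and M phase. The S phase list gave 33 higher and 1 lower without library 2 and 33 higher and 1 lower without library 3. The mean over the G2 and M list was 5.65, 5.05, 4.26 and 5.49 log2 CPM in GEM-PNST and 1.42 to 3.64 (median 2.16) in neurofibromas, and all 4 GEM-PNST libraries, library 1 included, were above all neurofibromas. The paraspinal libraries held 1.51 to 3.99.

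Promoters of these genes are shown because S phase and G2/M genes are known to carry different elements: sites for E2F factors, which RB holds in check, and the cell cycle genes homology region (CHR), bound by the DREAM and MuvB complexes. The sequences are RefSeq promoters of GRCm38.p6, each the 150 bases that precede the annotated start, read 5′ to 3′ on the gene's strand, with the matched element in capitals. E2F elements were searched as TTTCCCGC or TTTGGCGC and the CHR as TTTGAA, on both strands, and a match on the other strand appears as its reverse complement. Mcm5 (chr8:75109359-75109508, plus strand) and Mcm6 (chr1:128359706-128359855, minus strand), subunits of the replicative helicase, carry E2F elements.
Mcm5: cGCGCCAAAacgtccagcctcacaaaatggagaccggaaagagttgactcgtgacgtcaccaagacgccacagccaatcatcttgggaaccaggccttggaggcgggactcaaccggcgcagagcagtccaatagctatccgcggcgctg
Mcm6: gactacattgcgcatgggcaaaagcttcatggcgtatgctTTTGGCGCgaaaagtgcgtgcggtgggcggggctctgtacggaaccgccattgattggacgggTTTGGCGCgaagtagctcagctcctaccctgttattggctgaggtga
Cdc20 (chr4:118437344-118437493), Cdk1 (chr10:69352913-69353062) and Top2a (chr11:99024190-99024339), all on the minus strand, carry CHR elements.
Cdc20: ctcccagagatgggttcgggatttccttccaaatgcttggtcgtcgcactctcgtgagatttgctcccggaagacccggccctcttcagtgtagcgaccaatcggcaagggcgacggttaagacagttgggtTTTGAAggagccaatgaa
Cdk1: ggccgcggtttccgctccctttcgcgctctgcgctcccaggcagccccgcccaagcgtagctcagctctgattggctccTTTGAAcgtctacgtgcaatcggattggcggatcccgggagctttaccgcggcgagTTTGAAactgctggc
Top2a: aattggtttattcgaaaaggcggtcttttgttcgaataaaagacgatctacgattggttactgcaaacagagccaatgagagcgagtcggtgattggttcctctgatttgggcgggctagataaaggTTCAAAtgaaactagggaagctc
In windows of 300 bases, from 250 before to 50 after the start, the E2F element was found in 10 of 37 promoters of S phase genes (27.0%), in 0 of 37 promoters of G2 and M genes and in 1.56% of all 32851 promoters. The CHR element was found in 27 of 37 G2 and M promoters (73.0%), in 5 of 37 S phase promoters (13.5%) and in 17.9% of all. The promoters matched 29 genes of the S phase list and 34 of the G2 and M list, and some genes have more than 1 start. A CCAAT box was found in 62.2%, 75.7% and 37.4% of S phase, G2 and M and all promoters. A match describes letters and is not a bound site.

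Both genes shown with E2F elements rose. Mcm5 stood at 138, 53.9, 35.6 and 56.03 CPM against 3.85 to 13.7 CPM (median 6.35). Mcm5 was higher in all 4 libraries than in any neurofibroma (log2 fold change 3.25, SE 0.29, adjusted p = 4.36e-08). Mcm6 stood at 142, 89.95, 49.4 and 96.6 CPM against 4.86 to 18.9 CPM (median 10.5). All values of Mcm6 lay above the neurofibroma range (log2 fold change 3.04, SE 0.30, adjusted p = 1.29e-07). Of the CHR genes, Cdk1, the kinase that starts mitosis, stood at 158, 151, 60.7 and 133 CPM against 0 to 5.61 CPM (median 1.65), the largest rise of those shown (log2 fold change 5.99, SE 0.57, adjusted p = 8.13e-08). Cdc20, the activator of the anaphase-promoting complex, stood at 88.4, 70.7, 24.9 and 79.2 CPM against 1.34 to 3.98 CPM (median 2.31). The Cdc20 levels of the groups did not overlap, with GEM-PNST the higher (log2 fold change 4.73, SE 0.29, adjusted p = 7.85e-10). Top2a, the topoisomerase that untangles chromosomes, stood at 159, 132, 72.8 and 153 CPM against 2.76 to 75.8 CPM (median 15.2), where library 3 lay within the neurofibroma range (log2 fold change 2.46, SE 0.56, adjusted p = 8.36e-04). The Top2a log2 fold change was 3.83 with the length and GC trend removed. In all 5 genes library 3 was the lowest of the 4 GEM-PNST libraries.

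Other members also stood apart. The flap endonuclease gene Fen1 stood at 62.4, 21.3, 21.7 and 27.2 CPM against 0.861 to 3.34 CPM (median 2.00). Fen1 was higher in all 4 libraries than in any neurofibroma (log2 fold change 4.01, SE 0.28, adjusted p = 2.76e-09). The cyclin E gene Ccne1 stood at 25.1, 11.8, 10.8 and 14.2 CPM against 1.7 to 3.85 CPM (median 2.39). All values of Ccne1 lay above the neurofibroma range (log2 fold change 2.60, SE 0.24, adjusted p = 4.65e-08). Ccne1 came to a log2 fold change of 1.68 with the length and GC trend removed. Birc5, which encodes survivin, stood at 115, 54.9, 41.5 and 78.1 CPM against 3.44 to 10.3 CPM (median 6.11). The Birc5 levels of the groups did not overlap, with GEM-PNST the higher (log2 fold change 3.52, SE 0.24, adjusted p = 2.45e-09). Cenpa, the histone of the centromere, stood at 112, 81.7, 38.8 and 74.5 CPM against 0.837 to 7.38 CPM (median 2.76). Cenpa was higher in all 4 libraries than in any neurofibroma (log2 fold change 4.75, SE 0.36, adjusted p = 6.62e-09). Mki67, the common proliferation marker, was among those not called: it stood at 229.7, 54.2, 66.1 and 118 CPM against 10.6 to 175 CPM (median 43.3), within the wide neurofibroma range in 3 of 4 libraries (log2 fold change 1.03, SE 0.54, adjusted p = 0.0945). Library 1 was the one above all neurofibromas, and without it the Mki67 log2 fold change was 0.44 (adjusted p = 0.512). For Mki67 the log2 fold change was 2.41 with the length and GC trend removed (adjusted p = 6.18e-04). Both S phase genes that fell are known for the start of replication. Orc1, of the origin recognition complex, stood at 4.57, 1.77, 1.42 and 2.96 CPM against 5.52 to 13.8 CPM (median 8.87). All values of Orc1 lay below the neurofibroma range (log2 fold change -1.84, SE 0.34, adjusted p = 1.16e-04). Pola1, of DNA polymerase alpha, stood at 12.4, 5.52, 9.85 and 19.1 CPM against 12.2 to 28.7 CPM (median 18.6). The call for Pola1 (log2 fold change -0.69, SE 0.28, adjusted p = 0.0323) turned over in the variants: -0.46 without library 2 (adjusted p = 0.0986), -0.60 without library 3 (adjusted p = 0.0883), -1.06 without library 4 and 0.67 with the length and GC trend removed (adjusted p = 0.0169). Hmmr, a mitotic spindle protein, stood at 21.8, 22.2, 11.98 and 32.2 CPM against 28.2 to 45.7 CPM (median 33.4) and was the G2 and M gene called lower (log2 fold change -0.64, SE 0.21, adjusted p = 0.0107). The Hmmr log2 fold change was -0.42 without library 3 and 0.16 with the length and GC trend removed (adjusted p = 0.418). E2f1 stood at 31.03, 44.3, 23.2 and 39.5 CPM against 13.6 to 25.1 CPM (median 16.1). E2f1 was above every neurofibroma in libraries 1, 2 and 4 and within their range in library 3 (log2 fold change 0.96, SE 0.18, adjusted p = 1.95e-04). E2f1 came to a log2 fold change of -0.41 with the length and GC trend removed (adjusted p = 0.0842).

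Among inhibitors, cyclins and the RB pathway, 13 of 23 rose and 4 fell. Cdk4, the kinase that p16INK4a inhibits, stood at 258, 533, 217 and 342 CPM against 19.2 to 40.6 CPM (median 30.5), and its relative Cdk6 at 2.16, 2.65, 1.7 and 10.3 CPM against 14.7 to 115 CPM (median 38.4). The 2 kinases moved in opposite directions with no overlap in either (log2 fold change 3.40, SE 0.20, adjusted p = 5.34e-10 for Cdk4, and log2 fold change -3.38, SE 0.63, adjusted p = 1.32e-04 for Cdk6). For Cdk6 the log2 fold change was -1.59 with the length and GC trend removed. Cyclin D1, from Ccnd1, was not called, at 472, 371, 640.0 and 629 CPM against 40.01 to 826 CPM (median 369). Ccnd1 was within the neurofibroma range in all 4 libraries (log2 fold change 0.62, SE 0.59, adjusted p = 0.357). Cdkn1a, which encodes the p53 target p21, stood at 66.6, 149.8, 69.03 and 49.96 CPM against 101 to 315 CPM (median 167) and fell (log2 fold change -1.05, SE 0.32, adjusted p = 0.00701). The Cdkn1a log2 fold change was -1.96 with the length and GC trend removed. Rbl2, the pocket protein p130 of quiescent cells, stood at 31.5, 39.3, 34.7 and 30.4 CPM against 68.7 to 104 CPM (median 86.04). All values of Rbl2 lay below the neurofibroma range (log2 fold change -1.39, SE 0.13, adjusted p = 1.08e-07). Rbl2 came to a log2 fold change of -0.47 with the length and GC trend removed.

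The p53 list was divided, with 9 of 22 higher and 8 lower, near the 35.6% and 38.1% of all genes tested. Trp53 stood at 227, 250.1, 95.6 and 178 CPM against 31.98 to 67.8 CPM (median 51.7) and rose (log2 fold change 1.84, SE 0.21, adjusted p = 6.75e-07). Its targets Bax and Bbc3, which promote apoptosis, stood at 252, 139, 110.4 and 90.4 CPM and 73.4, 16.4, 20.2 and 12.99 CPM against 6.7 to 13.2 CPM (median 9.59) and 0.29 to 1.19 CPM (median 0.607). Both rose with no overlap (log2 fold change 3.96, SE 0.22, adjusted p = 2.52e-10 for Bax, and log2 fold change 5.56, SE 0.37, adjusted p = 1.53e-09 for Bbc3). For Bax the log2 fold change was 1.89 with the length and GC trend removed. The p53 inhibitor Mdm4 stood at 7.38, 9.63, 8.95 and 14.2 CPM against 94.8 to 179.7 CPM (median 151) and fell (log2 fold change -3.86, SE 0.24, adjusted p = 9.31e-10). The Mdm4 log2 fold change was -1.79 with the length and GC trend removed. Mdm2, at once an inhibitor and a target, stood at 44.3, 70.8, 51.8 and 46.4 CPM against 77.1 to 109 CPM (median 88.6). The Mdm2 levels of the groups did not overlap, with GEM-PNST the lower (log2 fold change -0.73, SE 0.14, adjusted p = 1.49e-04). Mdm2 came to a log2 fold change of -0.17 with the length and GC trend removed (adjusted p = 0.284).

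Polycomb repressive complex 2, which methylates histone H3 at lysine 27, was divided: 7 of 12 tested members were higher and 4 lower, with a median of 0.94. Of all genes tested 35.6% were higher and 38.1% lower. The polycomb list gave 6 higher and 5 lower without library 1 (median 0.56) and 9 higher and 2 lower with the trend removed. The methyltransferase gene Ezh2 stood at 55.4, 41.5, 28.5 and 34.8 CPM against 11.7 to 42.4 CPM (median 21.5). Ezh2 was above every neurofibroma in library 1 and within their range in libraries 2, 3 and 4 (log2 fold change 0.79, SE 0.26, adjusted p = 0.012). For Ezh2 the log2 fold change was 0.57 without library 1 (adjusted p = 0.0778) and 1.74 with the length and GC trend removed. Eed, a core subunit often lost in human malignant tumors, stood at 80.3, 20.98, 31.8 and 37.4 CPM against 12.2 to 25.02 CPM (median 19.5). Eed was above every neurofibroma in libraries 1, 3 and 4 and within their range in library 2 (log2 fold change 1.08, SE 0.24, adjusted p = 7.97e-04). The Eed log2 fold change was 0.55 without library 1. Suz12, the other such core subunit, stood at 31.7, 12.8, 17.9 and 32.1 CPM against 28.1 to 47.7 CPM (median 40.4). Suz12 was within the neurofibroma range in libraries 1 and 4 and below it in libraries 2 and 3 (log2 fold change -0.76, SE 0.21, adjusted p = 0.00426). Suz12 came to a log2 fold change of -0.05 with the length and GC trend removed (adjusted p = 0.809). No GEM-PNST library was near 0 for any of the 3. Rbbp4, a histone chaperone of several complexes, stood at 234, 179, 133 and 212 CPM against 41.5 to 62.7 CPM (median 50.6). Rbbp4 was higher in all 4 libraries than in any neurofibroma (log2 fold change 1.88, SE 0.13, adjusted p = 2.37e-09). For Rbbp4 the log2 fold change was 3.11 with the length and GC trend removed. Of 25 tested Hox genes, which the complex represses in many cell types, 8 rose and 3 fell, and with the trend removed 3 rose and 5 fell. Before that removal the share that rose was near the 35.6% of all genes tested, and the share that fell was below 38.1%. The Hox list gave 9 higher and 1 lower without library 1, 8 higher and 1 lower without library 2, 9 higher and 1 lower without library 3, 5 higher and 12 lower without library 4 and 8 higher and 1 lower without neurofibroma library 8. Hoxb8 stood at 2.87, 18.4, 0.758 and 13.2 CPM against 0.148 to 1.11 CPM (median 0.54), with libraries 1, 2 and 4 above all neurofibromas (log2 fold change 3.87, SE 0.56, adjusted p = 1.05e-05).

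The regulators of RAS, on which loss of neurofibromin acts, were divided: 8 of 22 rose and 12 fell, beside 35.6% and 38.1% of all genes tested. Their median of -0.96 came to -0.07 with the length and GC trend removed. Hras, one of the RAS genes, stood at 106, 135, 78.5 and 75.4 CPM against 11.4 to 29.9 CPM (median 13.98). All values of Hras lay above the neurofibroma range (log2 fold change 2.58, SE 0.22, adjusted p = 3.13e-08). The Hras log2 fold change was 1.62 with the length and GC trend removed. Rasal2, another GTPase-activating protein for RAS, stood at 9.54, 12.4, 12.8 and 16.3 CPM against 175 to 633 CPM (median 319). The Rasal2 levels of the groups did not overlap, with GEM-PNST the lower (log2 fold change -4.79, SE 0.38, adjusted p = 1.07e-08). Rasal2 came to a log2 fold change of -3.01 with the length and GC trend removed. Rasa1, a further one, stood at 19.4, 36.5, 37.4 and 49.1 CPM against 72.8 to 86.1 CPM (median 78.6), and its fall was not called once the trend was removed (log2 fold change -1.15, SE 0.18, adjusted p = 1.78e-05). For Rasa1 the log2 fold change was -0.01 with the length and GC trend removed (adjusted p = 0.959). Braf, the kinase below RAS, stood at 15.5, 32.5, 17.05 and 25.1 CPM against 144 to 215 CPM (median 166). Braf was lower in all 4 libraries than in any neurofibroma (log2 fold change -2.92, SE 0.21, adjusted p = 4.08e-09). The Braf log2 fold change was -0.89 with the length and GC trend removed.

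Genes induced by ERK signalling rose more often than they fell, 9 against 2 of 18. The ERK list gave 8 higher and 1 lower without library 3, 8 higher and 1 lower without library 4 and 7 higher and 4 lower with the trend removed. The phosphatase gene Dusp2 stood at 35.01, 10.1, 29.8 and 17.8 CPM against 0.0742 to 1.09 CPM (median 0.402). All values of Dusp2 lay above the neurofibroma range (log2 fold change 5.54, SE 0.44, adjusted p = 9.60e-09). Etv4, an ETS factor, stood at 18.7, 197, 21.9 and 82.95 CPM against 0.67 to 15.4 CPM (median 4.91), above all neurofibromas in each library and highest in library 2 (log2 fold change 3.87, SE 0.62, adjusted p = 2.90e-05). Etv4 came to a log2 fold change of 2.41 with the length and GC trend removed. Plaur, the urokinase receptor, stood at 25.8, 141, 21.3 and 47.6 CPM against 1.81 to 4.23 CPM (median 3.67). The Plaur levels of the groups did not overlap, with GEM-PNST the higher (log2 fold change 4.09, SE 0.34, adjusted p = 2.06e-08). Dusp6, the most used readout of ERK activity, was at the threshold, with 62.1, 103, 82.1 and 160.0 CPM against 11.7 to 89.98 CPM (median 54.8). Its call (log2 fold change 1.03, SE 0.45, adjusted p = 0.0497) was lost in the variants: 1.02 without library 2 (adjusted p = 0.0834), 1.14 without library 3 (adjusted p = 0.0507), 0.70 without library 4 (adjusted p = 0.218) and 0.84 with the length and GC trend removed (adjusted p = 0.11). Etv5 stood at 61.3, 61.2, 34.9 and 43.2 CPM against 38.5 to 131 CPM (median 80.95) and was lower (log2 fold change -0.72, SE 0.30, adjusted p = 0.0372). For Etv5 the log2 fold change was -0.56 without library 3 (adjusted p = 0.138), -0.69 without library 4 (adjusted p = 0.0898) and -1.09 with the length and GC trend removed. Myc stood at 106, 67.4, 26.2 and 84.3 CPM against 7.09 to 20.2 CPM (median 13.4), with no overlap (log2 fold change 2.36, SE 0.28, adjusted p = 1.27e-06). The Myc log2 fold change was 1.40 with the length and GC trend removed.

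Of 20 AP-1 and immediate early genes 12 rose and 3 fell. Junb, an AP-1 subunit, stood at 214, 396, 126 and 108 CPM against 1.00 to 5.12 CPM (median 2.41). Junb was higher in all 4 libraries than in any neurofibroma (log2 fold change 6.33, SE 0.38, adjusted p = 6.05e-10). Ier2, another early gene, stood at 75.5, 112, 52.04 and 48.7 CPM against 1.15 to 5.1 CPM (median 2.36). All values of Ier2 lay above the neurofibroma range (log2 fold change 4.79, SE 0.30, adjusted p = 8.78e-10). Ier2 came to a log2 fold change of 2.74 with the length and GC trend removed. The paraspinal libraries held 24.7 to 70.1 CPM of Junb, also above every neurofibroma.

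Receptor tyrosine kinases and their ligands were divided, 12 higher and 14 lower of 40, near the 35.6% and 38.1% of all genes tested. The receptor kinase list gave 6 higher and 15 lower without library 2. Erbb4, a neuregulin receptor, had 0 counts in GEM-PNST and 1.13 to 11.1 CPM (median 5.65) in neurofibromas, at least 131-fold lower on the floor of 3 counts (log2 fold change -9.49, SE 0.96, adjusted p = 8.03e-07). Egfr stood at 9.41, 13.3, 30.9 and 21.9 CPM against 15.2 to 156 CPM (median 70.2). Egfr was within the neurofibroma range in libraries 3 and 4 and below it in libraries 1 and 2 (log2 fold change -2.04, SE 0.49, adjusted p = 0.00131). For Egfr the log2 fold change was -0.42 with the length and GC trend removed (adjusted p = 0.429). Epha2, an ephrin receptor, stood at 38.7, 55.9, 13.2 and 55.2 CPM against 2.34 to 10.9 CPM (median 6.95) and rose (log2 fold change 2.56, SE 0.34, adjusted p = 3.67e-06). The Epha2 log2 fold change was 1.67 with the length and GC trend removed. Met, the receptor for hepatocyte growth factor, was not called at 29.7, 48.3, 8.1 and 78.4 CPM against 6.7 to 42.2 CPM (median 16.1), with library 3 the low one (log2 fold change 0.95, SE 0.49, adjusted p = 0.0905). Met came to a log2 fold change of 1.31 without library 3 (adjusted p = 0.0168) and 1.96 with the length and GC trend removed (adjusted p = 0.00124). Kitl, the stem cell factor that draws mast cells into neurofibromas, stood at 1.05, 9.21, 9.94 and 45.4 CPM against 55.2 to 138 CPM (median 67.3) and fell with no overlap (log2 fold change -2.15, SE 0.60, adjusted p = 0.00392). For Kitl the log2 fold change was -3.46 without library 4 and -1.23 with the length and GC trend removed.

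All 34 tested genes of cytosolic ribosomal proteins rose, with a median of 3.51, and 33 rose with a median of 2.46 after the trend was removed. Together, ribosomal protein genes took 5.28% to 12.7% of counts in GEM-PNST, 1.83% to 4.41% in the paraspinal libraries and 0.84% to 1.52% in neurofibromas. Rplp0, of the ribosomal stalk, stood at 4848, 3738, 2602 and 2442 CPM against 81.5 to 195 CPM (median 141). Rplp0 was higher in all 4 libraries than in any neurofibroma (log2 fold change 4.62, SE 0.22, adjusted p = 6.76e-11). Rps19, of the small subunit, stood at 3181, 1862, 1063 and 963 CPM against 33.01 to 70.3 CPM (median 51.7). All values of Rps19 lay above the neurofibroma range (log2 fold change 5.08, SE 0.26, adjusted p = 1.18e-10). The paraspinal libraries, from the same run, lay between the groups for both (487 to 1248 CPM of Rplp0 and 161 to 485 CPM of Rps19). Ribosomal protein genes have many near-identical pseudogenes, between which the counting could split reads. Of 24 MYC target and ribosome biogenesis genes 19 rose and 1 fell, with a median of 1.47. The MYC list gave 21 higher and 0 lower with the trend removed. Bop1, which processes ribosomal RNA, stood at 107, 75.3, 47.5 and 76.6 CPM against 7.16 to 12.97 CPM (median 9.11). The Bop1 levels of the groups did not overlap, with GEM-PNST the higher (log2 fold change 3.00, SE 0.17, adjusted p = 3.02e-10). The Bop1 log2 fold change was 1.60 with the length and GC trend removed. The nucleolar protein gene Nop58 stood at 116, 89.95, 52.9 and 104.6 CPM against 15.7 to 26.4 CPM (median 19.3). Nop58 was higher in all 4 libraries than in any neurofibroma (log2 fold change 2.19, SE 0.16, adjusted p = 4.41e-09). Nop58 came to a log2 fold change of 3.91 with the length and GC trend removed.

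Of 30 subunits of oxidative phosphorylation 25 rose and 2 fell, with 20 and 2 after removal of the trend. The oxidative phosphorylation list gave 25 higher and 0 lower without library 3. Uqcrb, of complex III, stood at 185, 138, 121 and 139 CPM against 7.38 to 21.1 CPM (median 12.1). All values of Uqcrb lay above the neurofibroma range (log2 fold change 3.48, SE 0.22, adjusted p = 7.65e-10). The ATP synthase gene Atp5a1 stood at 853, 637, 446 and 611 CPM against 190.2 to 512 CPM (median 331). Atp5a1 was above every neurofibroma in libraries 1, 2 and 4 and within their range in library 3 (log2 fold change 0.86, SE 0.22, adjusted p = 0.00249). For Atp5a1 the log2 fold change was -0.16 with the length and GC trend removed (adjusted p = 0.578). Of 26 glycolysis and hypoxia genes 11 rose and 5 fell. The glycolysis and hypoxia list gave 11 higher and 3 lower with the trend removed. The pyruvate kinase gene Pkm stood at 2848, 6906, 489.5 and 1494 CPM against 104.9 to 391 CPM (median 223), above every neurofibroma in all 4 libraries (log2 fold change 3.55, SE 0.42, adjusted p = 1.04e-06). Slc16a3, which exports lactate, stood at 168, 292, 7.86 and 9.73 CPM against 0.586 to 2.32 CPM (median 1.6), with libraries 1 and 2 far above 3 and 4 (log2 fold change 6.34, SE 0.62, adjusted p = 1.33e-07).

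Genes that make sterols and fatty acids, which myelinating glia use heavily, fell: 19 of 25 were lower and 2 higher, with a median of -1.71. The sterol list gave 1 higher and 19 lower without library 1, 1 higher and 18 lower without library 2, 1 higher and 19 lower without neurofibroma library 9 and 0 higher and 17 lower with the trend removed. Hmgcs1, at the entry to the mevalonate pathway, stood at 11.04, 17.6, 18.9 and 38.7 CPM against 103 to 577 CPM (median 219.9). Hmgcs1 was lower in all 4 libraries than in any neurofibroma (log2 fold change -3.55, SE 0.47, adjusted p = 3.99e-06). Idi1, the isomerase of the same pathway, was almost absent at 0.327, 0.0521, 0.71 and 1.48 CPM against 36.5 to 184 CPM (median 72.5). All values of Idi1 lay below the neurofibroma range (log2 fold change -7.05, SE 0.71, adjusted p = 1.64e-07). Scd2, the main fatty acid desaturase of neural tissue, stood at 322, 262, 362 and 194 CPM against 937 to 2094 CPM (median 1848). The Scd2 levels of the groups did not overlap, with GEM-PNST the lower (log2 fold change -2.63, SE 0.26, adjusted p = 1.11e-07). The list averaged 4.71 to 5.04 log2 CPM in GEM-PNST, 5.84 to 7.38 (median 6.63) in neurofibromas and 6.48 to 7.03 in paraspinal libraries.

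**Figure D3:**
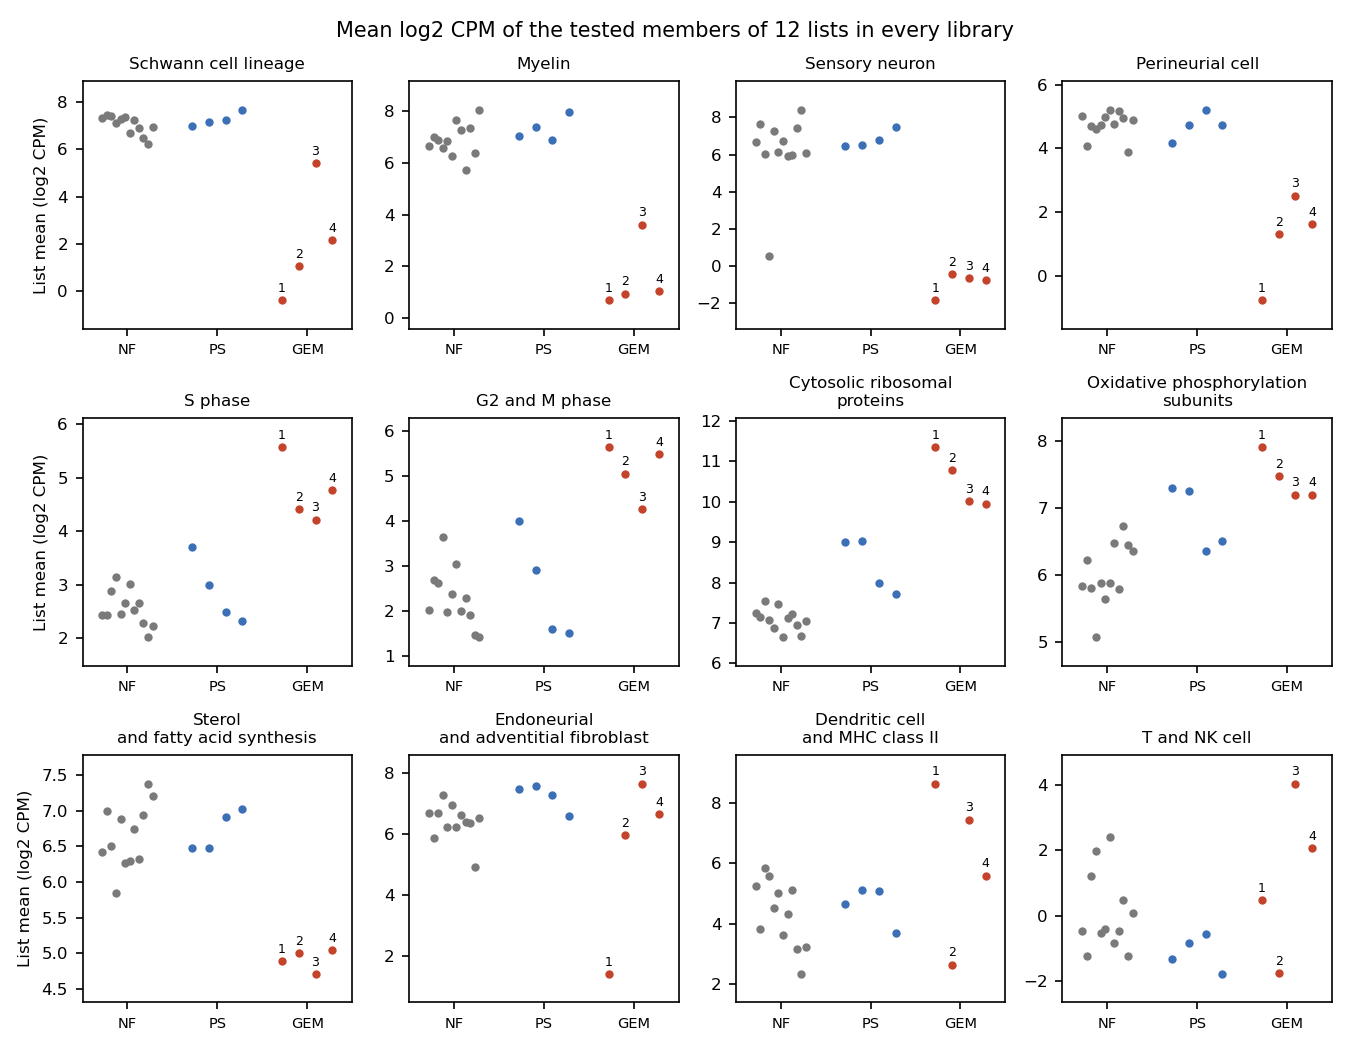
Mean log2 CPM over the tested members of 12 lists in every neurofibroma (NF, grey), paraspinal (PS, blue) and GEM-PNST (GEM, red, numbered by library) library, 1 point per library and a separate axis per list. Schwann cell, myelin, neuron, perineurial and sterol lists are lower and cell division and ribosomal lists higher in all 4 GEM-PNST libraries than in any neurofibroma, whereas the fibroblast, class II and T cell lists differ between GEM-PNST libraries.

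Collagens were divided, with 12 of 35 chains higher and 8 lower, beside 35.6% and 38.1% of all genes tested. The collagen list gave 7 higher and 12 lower without library 3. Col1a1, of fibrillar collagen I, stood at 69.4, 406, 5905 and 1459.9 CPM against 53.7 to 855 CPM (median 406). Library 3 was far above the rest and libraries 1 and 2 were inside the neurofibroma range, so its call (log2 fold change 2.23, SE 0.68, adjusted p = 0.00728) was lost in the variants: 0.64 without library 3 (adjusted p = 0.389) and 1.48 with the length and GC trend removed (adjusted p = 0.0691). The basement membrane chain Col4a1 rose in all 4 libraries, at 603, 647, 1283 and 969 CPM against 46.96 to 363 CPM (median 188). Col4a1 was higher in all 4 libraries than in any neurofibroma (log2 fold change 2.17, SE 0.32, adjusted p = 1.36e-05). Col28a1, a collagen of the Schwann cell surface, stood at 0.131, 0.312, 161 and 5.21 CPM against 31.4 to 358 CPM (median 167) and was not called (log2 fold change -2.02, SE 1.25, adjusted p = 0.154), which again rested on library 3 (-6.51 without library 3 (adjusted p = 3.65e-04)). Among genes of matrix remodelling 13 of 33 rose and 4 fell. Plau, which encodes urokinase, stood at 36.2, 448, 137 and 156 CPM against 3.06 to 21.6 CPM (median 9.39). All values of Plau lay above the neurofibroma range (log2 fold change 4.20, SE 0.46, adjusted p = 4.74e-07). The macrophage elastase gene Mmp12 stood at 74.5, 26.3, 1.89 and 78.2 CPM against 0 to 1.48 CPM (median 0.467). The Mmp12 levels of the groups did not overlap, with GEM-PNST the higher (log2 fold change 6.38, SE 0.74, adjusted p = 8.60e-07). Of 28 integrin and laminin genes 5 rose and 12 fell. The integrin and laminin list gave 8 higher and 11 lower without library 1 and 3 higher and 12 lower without library 2. Itga5, of the fibronectin receptor, stood at 81.3, 282, 96.3 and 273 CPM against 3.85 to 50.1 CPM (median 31.6) and rose (log2 fold change 2.68, SE 0.46, adjusted p = 6.37e-05). Itga6, of the laminin receptor of Schwann cells, stood at 5.68, 52.5, 82.7 and 161 CPM against 129 to 473 CPM (median 318). Itga6 was within the neurofibroma range in library 4 and below it in libraries 1, 2 and 3 (log2 fold change -2.06, SE 0.55, adjusted p = 0.00303). The Itga6 log2 fold change was -1.20 with the length and GC trend removed.

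Macrophage genes were mostly higher: 14 of 24 rose and 1 fell, with a median of 1.87. C1qa, a complement subunit made by tissue macrophages, stood at 336, 444, 1049 and 1186 CPM against 2.76 to 53.6 CPM (median 19.8), above all neurofibromas in each library (log2 fold change 5.15, SE 0.64, adjusted p = 2.02e-06). C1qa came to a log2 fold change of 3.27 with the length and GC trend removed. Cd68, a lysosomal protein, stood at 732, 93.3, 133 and 264 CPM against 2.68 to 58.2 CPM (median 21.3), also without overlap (log2 fold change 3.70, SE 0.55, adjusted p = 1.40e-05). For Cd68 the log2 fold change was 2.33 with the length and GC trend removed. Csf1r, the receptor on which macrophages depend, stood at 147, 127, 359 and 737 CPM against 10.5 to 187 CPM (median 92.99), with libraries 1 and 2 inside the neurofibroma range (log2 fold change 1.82, SE 0.60, adjusted p = 0.0118). The Csf1r log2 fold change was 1.09 without library 4 (adjusted p = 0.136). Mertk, which macrophages use to take up dead cells, was the member that fell, at 8.3, 20.5, 7.53 and 29.8 CPM against 26.03 to 179 CPM (median 95.3). Mertk was within the neurofibroma range in library 4 and below it in libraries 1, 2 and 3 (log2 fold change -2.53, SE 0.47, adjusted p = 1.28e-04).

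For antigen presentation through MHC class II, the size of the rise and the number of genes called depended on library 1. Of 15 dendritic cell and class II genes 12 rose and 0 fell with all libraries. Without library 1, 7 rose and 0 fell, and the median went from 3.55 to 1.75. Without library 1 the class II genes H2-Eb1 (log2 fold change 3.67), H2-Ab1 (2.75), H2-DMb1 (2.77) and H2-DMa (1.91) stayed called. Without libraries 1 and 3, 3 rose and 1 fell. The class II list gave 11 higher and 1 lower without library 3. The class II chain H2-Aa stood at 32472, 339, 3903 and 1719.8 CPM against 43.9 to 1432 CPM (median 411), with library 2 within the neurofibroma range (log2 fold change 4.23, SE 0.86, adjusted p = 3.02e-04). H2-Aa came to a log2 fold change of 1.93 without library 1. Cd74 stood at 38523, 979, 7053 and 3396 CPM against 78.5 to 3112 CPM (median 954). Cd74 was above every neurofibroma in libraries 1, 3 and 4 and within their range in library 2 (log2 fold change 3.48, SE 0.80, adjusted p = 8.73e-04). For Cd74 the log2 fold change was 1.75 without library 1 (adjusted p = 0.0503) and 1.75 with the length and GC trend removed (adjusted p = 0.0594). Of 24 class I and interferon genes 14 rose and 1 fell, against 6 and 2 without libraries 1 and 3. The class I list gave 14 higher and 0 lower without library 2, 12 higher and 3 lower without library 3 and 12 higher and 0 lower with the trend removed. Tapbp, which loads peptide onto class I, rose in all 4 libraries at 624, 169, 437 and 255 CPM against 25.5 to 63.6 CPM (median 45.2). Tapbp was higher in all 4 libraries than in any neurofibroma (log2 fold change 3.03, SE 0.27, adjusted p = 3.96e-08). The Tapbp log2 fold change was 1.90 with the length and GC trend removed. B2m, the light chain of class I, was not called at 1577, 1547, 2123 and 1685 CPM against 361 to 2314 CPM (median 1108). B2m was within the neurofibroma range in all 4 libraries (log2 fold change 0.63, SE 0.32, adjusted p = 0.0914).

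Of 18 T and NK cell genes 7 rose and 0 fell, and without library 3 3 rose and 1 fell. Ccl5, a chemokine of activated T cells, stood at 6.47, 2.86, 193 and 23.5 CPM against 0.0837 to 5.32 CPM (median 1.11). Ccl5 was above every neurofibroma in libraries 1, 3 and 4 and within their range in library 2 (log2 fold change 5.14, SE 0.80, adjusted p = 2.45e-05). Ccl5 came to a log2 fold change of 2.79 without library 3. The T cell gene Cd3e was not called, at 1.11, 0.104, 23.9 and 5.91 CPM against 0.167 to 45.3 CPM (median 1.51). All but library 2 lay within the neurofibroma range for Cd3e (log2 fold change 0.08, SE 1.26, adjusted p = 0.955). Without library 3 the Cd3e log2 fold change was -1.63 (adjusted p = 0.351). Cd274, which encodes the checkpoint ligand PD-L1, stood at 1.63, 13.2, 13.3 and 5.76 CPM against 14.4 to 28.3 CPM (median 20.7) and fell with no overlap (log2 fold change -1.34, SE 0.38, adjusted p = 0.0045). Cxcr4, a chemokine receptor, stood at 151, 177, 16.9 and 69.96 CPM against 3.61 to 17.2 CPM (median 6.91), with library 3 just inside the neurofibroma range (log2 fold change 3.76, SE 0.44, adjusted p = 8.77e-07). In the mast cell list 3 of 14 rose and 4 fell, in the neutrophil list 3 and 1 of 13, and in the B cell list 2 and 0 of 8. The B cell list gave 1 higher and 0 lower without library 1. The mast cell list gave 2 higher and 2 lower without library 3. The neutrophil list gave 2 higher and 4 lower without library 4 and 3 higher and 2 lower with the trend removed.

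Of 35 WNT pathway genes 15 fell and 4 rose, beside 38.1% and 35.6% of all genes tested. The share that fell was near that of all genes, and the share that rose was below it. The ligand gene Wnt2b stood at 0, 0, 0.189 and 0.545 CPM against 14.3 to 52.2 CPM (median 26.02). Wnt2b was lower in all 4 libraries than in any neurofibroma (log2 fold change -7.23, SE 0.75, adjusted p = 2.36e-07). The membrane inhibitor Znrf3 stood at 0.653, 5.57, 3.03 and 5.45 CPM against 18.3 to 39.4 CPM (median 33.2). All values of Znrf3 lay below the neurofibroma range (log2 fold change -3.02, SE 0.42, adjusted p = 7.41e-06). The co-receptor gene Lrp6 stood at 20.4, 57.99, 48.8 and 82.2 CPM against 135 to 295 CPM (median 229.8). The Lrp6 levels of the groups did not overlap, with GEM-PNST the lower (log2 fold change -2.13, SE 0.30, adjusted p = 7.13e-06). For Lrp6 the log2 fold change was -0.36 with the length and GC trend removed (adjusted p = 0.218). In the hedgehog pathway 2 of 15 rose and 4 fell. The hedgehog pathway list gave 2 higher and 7 lower without library 3. Its target Gli1 stood at 0.0653, 0.104, 66.1 and 0.856 CPM against 4.94 to 73.5 CPM (median 34.4), where library 3 held a neurofibroma level and the others did not (log2 fold change -1.13, SE 1.11, adjusted p = 0.368). The Gli1 log2 fold change was -6.80 without library 3 (adjusted p = 1.36e-05). In the Hippo pathway 7 of 20 rose and 6 fell, Lats1 and Lats2, kinases of the core cascade, among the latter. These Hippo shares were near those of all genes tested (35.6% and 38.1%). Lats1 stood at 15.1, 25.1, 25.05 and 38.4 CPM against 107 to 178 CPM (median 135). Lats1 was lower in all 4 libraries than in any neurofibroma (log2 fold change -2.37, SE 0.22, adjusted p = 6.03e-08). Lats1 came to a log2 fold change of -1.29 with the length and GC trend removed. Lats2 stood at 21.2, 18.8, 19.6 and 48.4 CPM against 119 to 162 CPM (median 144). All values of Lats2 lay below the neurofibroma range (log2 fold change -2.40, SE 0.24, adjusted p = 1.31e-07).

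Of 20 senescence-associated secretory genes 13 rose and 0 fell, with a median of 2.20. The senescence list gave 12 higher and 1 lower without library 3 and 12 higher and 1 lower without library 4. Tgfb1, a growth inhibitor and matrix inducer, stood at 625, 119.6, 104 and 103 CPM against 1.59 to 16.6 CPM (median 6.93), highest in library 1 and above all neurofibromas in each (log2 fold change 4.84, SE 0.51, adjusted p = 2.91e-07). Lmnb1, a nuclear lamin that is known to be lost in senescent cells, rose, at 98.3, 21.8, 28.03 and 44.7 CPM against 1.26 to 7.16 CPM (median 3.76). The Lmnb1 levels of the groups did not overlap, with GEM-PNST the higher (log2 fold change 3.60, SE 0.40, adjusted p = 5.55e-07). In the imprinted growth network 4 of 16 rose and 3 fell. The imprinted gene list gave 5 higher and 5 lower without library 2. Dlk1, a fetal Notch-like protein, stood at 5.42, 8.38, 4.59 and 359 CPM against 0 to 1.05 CPM (median 0.105), with library 4 far above the others (log2 fold change 8.69, SE 1.06, adjusted p = 1.56e-06). For Dlk1 the log2 fold change was 4.68 without library 4. Peg3, a zinc finger gene of the network, stood at 0.0653, 0.208, 0.758 and 0.778 CPM against 51.9 to 487 CPM (median 156). Peg3 was lower in all 4 libraries than in any neurofibroma (log2 fold change -8.68, SE 0.82, adjusted p = 8.57e-08). The simple-epithelium keratins Krt8 and Krt18 were near 0 in neurofibromas and present in GEM-PNST. Krt8 stood at 1.31, 8.07, 9.66 and 692 CPM against 0 to 0.724 CPM (median 0), again highest in library 4 (log2 fold change 10.92, SE 1.30, adjusted p = 1.20e-06). The Krt8 log2 fold change was 6.07 without library 4. Krt18 stood at 173, 353, 12.8 and 82.7 CPM against 0 to 1.53 CPM (median 0.0369), with no overlap (log2 fold change 9.41, SE 0.95, adjusted p = 1.69e-07). In the paraspinal libraries Krt8 lay at 0 to 0.169 CPM and Krt18 at 0 to 0.0675 CPM.

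Markers of tissue outside the nerve differed between libraries. The salivary gland list had 4 of 8 tested members higher and 2 lower, and without library 3 2 and 3. Amy1 stood at 0.784, 0.833, 4096 and 0.545 CPM against 14.2 to 77.8 CPM (median 28.5), so its direction was set by library 3 (log2 fold change 4.90, SE 1.26, adjusted p = 0.00225). Amy1 came to a log2 fold change of -5.53 without library 3 (adjusted p = 4.14e-06). The amylase genes are near-identical copies, which makes the count of each uncertain. Of 18 muscle genes 3 rose and 0 fell, and of 14 adipocyte genes 0 rose and 2 fell. The skeletal muscle list gave 2 higher and 1 lower without library 3 and 1 higher and 0 lower with the trend removed. Muscle genes averaged 0.38, 2.03, 5.11 and 3.94 log2 CPM in libraries 1 to 4 and 0.08 to 6.15 (median 2.27) in neurofibromas, so that the groups overlapped. The adipocyte list gave 0 higher and 5 lower without library 3 and 0 higher and 5 lower with the trend removed. Of 11 cartilage and bone genes 2 rose and 4 fell. The cartilage and bone list gave 1 higher and 5 lower without library 1, 1 higher and 5 lower without library 2, 1 higher and 4 lower without neurofibroma library 9 and 1 higher and 4 lower with the trend removed. Of 6 red blood cell genes 1 rose and 2 fell. The red blood cell list gave 0 higher and 2 lower without library 2. Of 10 keratinocyte and epithelial genes 5 rose and 4 fell. Of 21 immune checkpoint ligand and chemokine genes 10 rose and 3 fell.

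**Figure D4:**
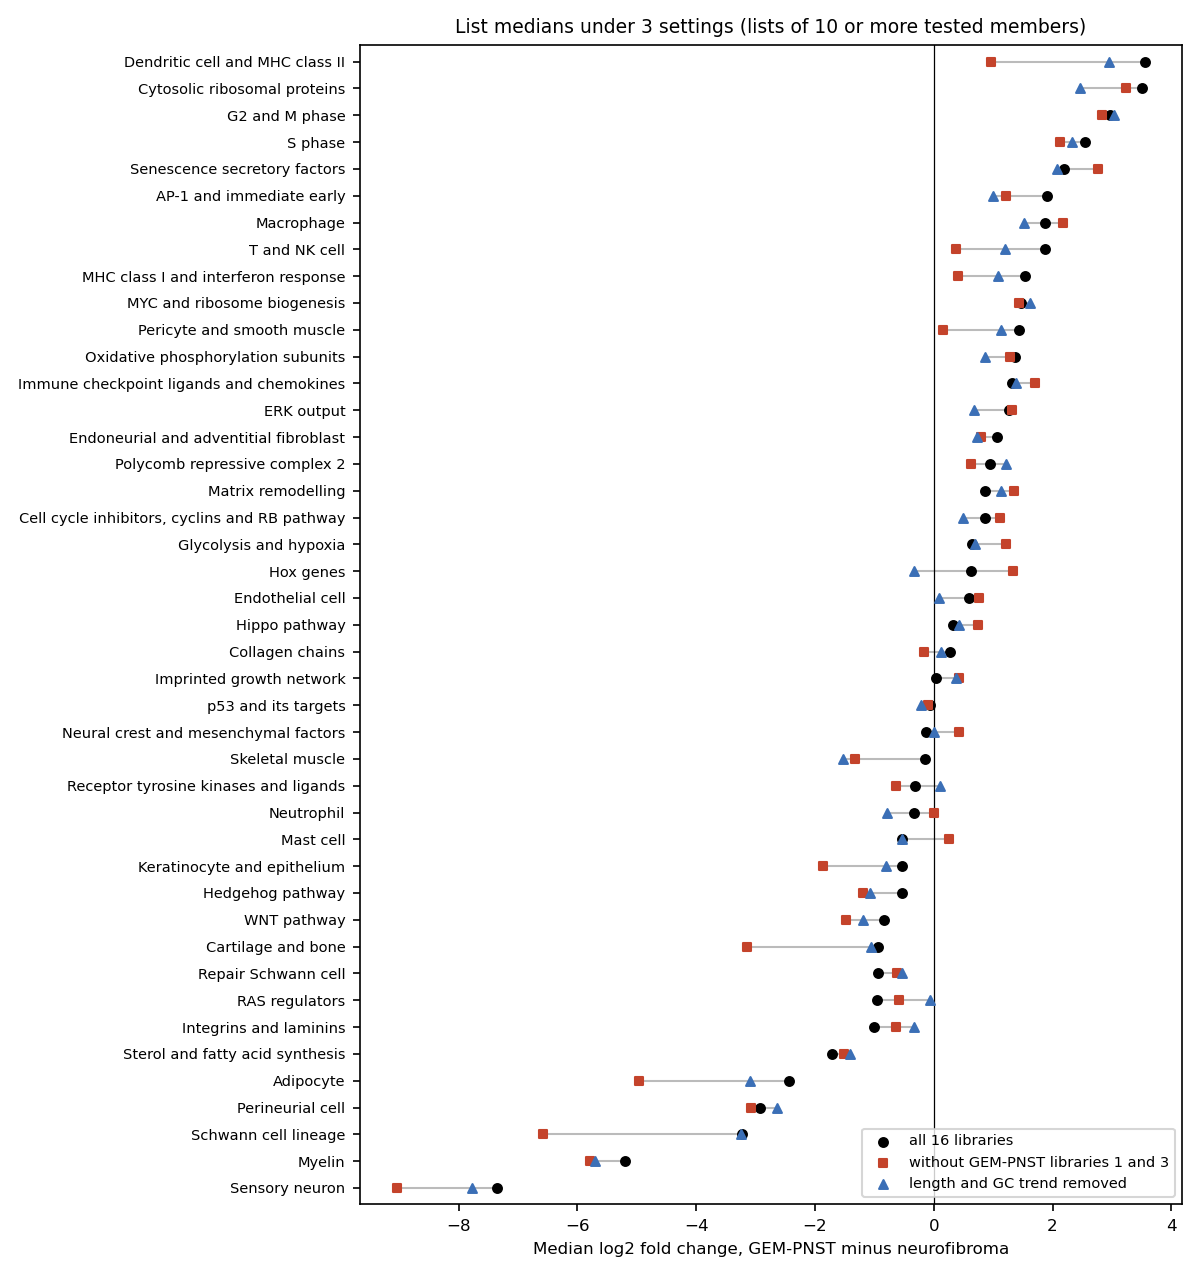
Median log2 fold change of GEM-PNST over neurofibroma in the lists of 10 or more tested members, with all 16 libraries (black circles), without GEM-PNST libraries 1 and 3 (red squares) and with the length and GC trend removed (blue triangles). The Schwann cell median moved from -3.23 to -6.58 without libraries 1 and 3, and the ribosomal protein median from 3.51 to 2.46 with the trend removed.

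The genes with the largest changes were taken among 4961 genes that met the rule in the processing notes. That rule requires no overlap between the groups, so the lack of overlap in these genes, higher or lower, follows from the choice. Cyba, a subunit of the phagocyte oxidase, stood at 1228, 428, 346 and 326 CPM against 2.01 to 15.1 CPM (median 7.54). All values of Cyba lay above the neurofibroma range (log2 fold change 6.24, SE 0.45, adjusted p = 3.77e-09). Lgals3, a galectin of macrophages and tumor cells, stood at 4951, 1293, 318 and 446 CPM against 9.04 to 41.8 CPM (median 25.4). The Lgals3 levels of the groups did not overlap, with GEM-PNST the higher (log2 fold change 6.15, SE 0.56, adjusted p = 4.80e-08). Loxl1, which cross-links elastin and collagen, stood at 22.4, 1018, 483 and 644 CPM against 1.67 to 17.3 CPM (median 8.78), lowest in library 1 and still above all neurofibromas (log2 fold change 5.98, SE 0.62, adjusted p = 2.62e-07). Lgals1, a galectin abundant in mesenchymal tumors, had the same order at 417, 4781, 1737 and 3640.5 CPM against 31.1 to 77.96 CPM (median 58.7). Lgals1 was higher in all 4 libraries than in any neurofibroma (log2 fold change 5.52, SE 0.37, adjusted p = 1.83e-09). Leukocyte genes in the same group were highest in library 1: Lsp1, a leukocyte actin-binding protein, stood at 5774, 473, 834 and 564 CPM against 3.52 to 89.8 CPM (median 32.05). All values of Lsp1 lay above the neurofibroma range (log2 fold change 5.76, SE 0.64, adjusted p = 5.30e-07). Irf8, a transcription factor of myeloid cells, stood at 2319.5, 36.9, 238 and 94.2 CPM against 0.837 to 29.7 CPM (median 11.1). The Irf8 levels of the groups did not overlap, with GEM-PNST the higher (log2 fold change 5.56, SE 0.83, adjusted p = 1.56e-05). For Irf8 the log2 fold change was 3.08 without library 1. Ppib, a cyclophilin of the secretory pathway, was high in all 4 libraries, at 699, 1093, 559 and 524 CPM against 12.7 to 23.8 CPM (median 15.9). Ppib was higher in all 4 libraries than in any neurofibroma (log2 fold change 5.42, SE 0.20, adjusted p = 4.24e-12). The paraspinal libraries also lay above every neurofibroma for Cyba (27.4 to 131.7 CPM), Lgals3 (82.6 to 175.8), Lgals1 (292.3 to 1398.5) and Ppib (145.1 to 561.7). For Loxl1, Lsp1 and Irf8 the paraspinal and neurofibroma ranges overlapped.

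Among the largest falls, Rab3c, of synaptic vesicles, had 0 counts in GEM-PNST and 2.21 to 723 CPM (median 203) in neurofibromas, at least 5960-fold lower (log2 fold change -14.96, SE 1.82, adjusted p = 5.17e-06). Rph3a, its effector rabphilin, was likewise at 0 against 7.31 to 384 CPM (median 116), at least 3070-fold lower (log2 fold change -14.04, SE 1.56, adjusted p = 2.09e-06). Of the 12 largest falls, 5 had a different pattern, with 0 counts in all 4 paraspinal libraries as well: Olfr613, Gje1, Vmn1r58, Cdr1 and Dcdc2c. The olfactory receptor gene Olfr613 stood at 217 to 313 CPM (median 279) in neurofibromas (log2 fold change -14.95, SE 0.32, adjusted p = 1.15e-12). The vomeronasal receptor gene Vmn1r58 stood at 156 to 215 CPM (median 179.5). All values of Vmn1r58 lay below the neurofibroma range (log2 fold change -14.41, SE 0.31, adjusted p = 1.15e-12). Both stood at similar levels in all 12 neurofibroma libraries. For these 5 genes the change followed the sequencing run and the Ink4a/Arf genotype, which the paraspinal and GEM-PNST libraries share, and stage cannot be told apart from them. The olfactory and vomeronasal genes belong to large families of near-identical copies, and Cdr1 overlaps an antisense transcript while the strand of counting is not given in the sources used here.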

How the data were processed

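Total RNA of the tumors was extracted and made into Nextera XT libraries, per the labels' protocols. The authors deposited 1 table of raw, unnormalised read counts by gene symbol, with mm10 as the build. TopHat, HISAT2 and featureCounts are named in the submitters' processing notes, with no version, role or strand setting. The table's 20 columns were matched to samples by the deposited list of sample names and alignment files, and every column was checked to hold whole-number counts (24062 genes).

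The 4 GEM-PNST and 12 neurofibroma libraries were compared with edgeR 4.0.16 in R 4.3.3, by its quasi-likelihood F test with TMM factors and its expression filter, which 16217 genes passed. Benjamini-Hochberg adjustment ran over all genes tested, with a threshold of 0.05. Adjusted p-values in the text are from this test unless another tool is named. CPM use the TMM factors, log2 CPM a prior count of 2, and a fold against 0 counts a floor of 3 counts over the group. The precision is set by depth (3 counts are 0.142 to 0.287 CPM in these libraries) and by the 4 libraries of the smaller group. The fit was run on simulated counts with few genes changed, evenly up and down, and neurofibroma dispersion in both groups. Such counts do not cover a comparison in which most genes differ. Alternatives were limma 3.58.1 (voom with sample weights), DESeq2 1.42.0, other factors and filters, each neurofibroma run alone and all 20 libraries in 1 fit. Further ones were libraries left out, a replicate block, a fit without Rn45s and Malat1, and offsets that remove the trend of counts with exon length and GC content.

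Named genes were those engineered, the 12 with the largest change each way (mean log2 CPM of at least 3, no overlap, called against each neurofibroma run) and, in each list, preset members and the 4 with the smallest p; from these a selection is printed. Chosen outside this rule, after their values were seen, were Cd74, Cd207, Bpifa2, Tfap2a, Mpp6, Orc1, Pola1, Hmmr, Cdk1, Mcm5, Mcm6, Hras, Avil and Mertk. The groups, gene lists and rules were chosen with earlier results of these data known. Of 1036 list genes 1029 were in the table, 6 by an older symbol. Promoters come from RefSeq tables of GRCm38.p6. The paraspinal libraries entered no comparison, but were in the fit of 1 alternative. A few items are not reported here.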

Additional observations from a re-analysis of the deposited data

Results flagged for a closer look

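In 17 of the 192 genes examined and 6 of 46 list means, 1 GEM-PNST library lay far from the other 3 on the log2 CPM scale, beyond the 95% critical value of Dixon's test. Chance flags about 1 in 20 groups picked without regard to their values. That rate is no yardstick here, because the 192 genes include some chosen after their values were seen, Bpifa2 among them. A gene with counts in 1 library alone is always flagged, as Trpv1, Stmn3, Pclo, Ugt8a, Igf2bp3 and Dkk1 were. Of the 17 genes, 6 had library 1 as the far one, 8 library 3, 3 library 4 and 0 library 2.

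Library 3 was the high one for the saliva genes Bpifa2 (26701 CPM) and Amy1 (4096 CPM) and for genes of myelin: Pmp22 at 268 CPM, Cldn19, a tight junction protein of Schwann cells, at 1.37 CPM, and Ugt8a at 0.189 CPM. The mean over the myelin list was 3.62 log2 CPM there. Among neuronal genes, library 3 was the single library with counts for Trpv1 (0.0473 CPM), Stmn3 (0.189 CPM) and Pclo (0.0473 CPM), so these flags rest on few reads.

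Library 1 was the low one for the matrix genes Col6a1 (221 CPM), Timp1 (3.00 CPM) and Dcn (0.457 CPM) and for the imprinted RNA H19 (0.0653 CPM). It was the high one for Tgfb1 (625 CPM) and, with a single read, for the WNT inhibitor Dkk1 (0.0653 CPM). Its list means were low for matrix remodelling (3.31 log2 CPM), integrins and laminins (2.32), receptor tyrosine kinases and ligands (1.79) and senescence secretory factors (2.13).

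Library 4 was the high one for Dlk1 (359 CPM), the Hippo kinase Lats2 (48.4 CPM) and Igf2bp3 (0.233 CPM), and its neutrophil list mean was 3.89 log2 CPM.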

How the results depend on the processing

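The count of genes called kept within 1.5 times of 11947 in all alternatives run except the replicate block. Leaving out 1 GEM-PNST library gave 11770 to 11993 genes, and leaving out neurofibroma library 4, 8 or 9 gave 11775 to 11931. With a 2-fold minimum 3826 genes were called higher. Same-numbered libraries were only weakly alike: their deviations correlated at -0.05, 0.12, 0.06 and 0.11 over 16217 genes. Among the neurofibromas so numbered, 2 of 4 GEM-PNST libraries correlated best with their own number, which does not settle whether the numbers pair. With the replicate block 7450 genes were called, 3438 higher and 4012 lower. Neurofibroma libraries whose number no GEM-PNST library has stood alone in their block and added nothing to that contrast. Between the neurofibroma runs DESeq2 called 503, limma-voom 510 and the fit with the length and GC trend removed 2 genes. Of 182 called genes examined across the alternatives, 140 kept call and direction wherever an alternative gave them a result, the replicate block aside. DESeq2 gave a result for 183 and the stricter filter for 188 of the 190 genes compared.

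Directions turned over for Cdkn2b (-0.10), E2f1 (-0.41), Pola1 (0.67), Hmmr (0.16) and Atp5a1 (-0.16) with the length and GC trend removed. They did for Ccnd1 (-0.00) and Pdgfra (-0.20) with the replicate block, and for Pi16 without GEM-PNST library 3 (-0.50, the lowest of the values with 1 library left out, up to 4.72). Amy1 turned to -0.62 in limma-voom, -5.53 without library 3 (up to 5.34 with another library left out), -5.60 without libraries 1 and 3, and -3.60 with the replicate block. Leaving out libraries 1 and 3 together was chosen after seeing the data. The Hox median came to -0.34 with the trend removed. The causes were not tested. The design cannot separate stage from run and genotype, and 3 counts, or 0.142 to 0.287 CPM, limit what can be told of genes near 0.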
